A study of Mus musculus with 2 samples.

Results

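The SLC25 family are the mitochondrial carriers, membrane proteins that move metabolites, nucleotides, cofactors and ions, mostly across the inner mitochondrial membrane. Members were taken as the genes whose symbol on the array is Slc25a followed by a number. There were 42 of them among 15644 named genes. An intensity of 32 or more in at least 1 array counted as measured, which held for 27 of the 42 carriers, or 64.3%, and for 6449 of the named genes, or 41.2%. The carriers were measured in primary hepatocytes, liver parenchymal cells kept in culture, isolated from a male C57BL/6 mouse aged 9 weeks. After 24 h in culture the cells were exposed for 12 h to pregnenolone 16α-carbonitrile (PCN) at 10 µmol/l, or to its solvent, dimethyl sulfoxide (DMSO). PCN, a steroid made by synthesis, is a ligand of the pregnane X receptor in rodents, a nuclear receptor of drug metabolism. Each group was a pool of RNA from 3 samples read on 1 array, so there were 2 arrays and no replicates. The spread between cultures is unknown, and the words higher and lower refer to 1 array against the other.

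A typical carrier is built from repeats of a pair of membrane-spanning helices. In the inner membrane it opens in turn to the intermembrane space and to the matrix, often exchanging one substrate for another. In hepatocytes the family links cytosol and matrix in urea synthesis, gluconeogenesis, fatty acid oxidation, citrate export for lipid synthesis, and heme and iron-sulfur cluster formation. Slc25a47 is a liver-enriched member whose transported substrate is not settled.

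The hepatocyte markers Alb, Ttr, Apoa1, Apob, Fgb and Hnf4a were measured, Alb at an intensity of 21685 with DMSO and 21383 with PCN. Of the hepatocyte list, Tat was under the floor in both arrays and Cps1 was not analysed here. The summed intensity of that list was 70029 with DMSO and 69412 with PCN. Of its 6 measured genes 5 were lower with PCN, beside 42.4% of all measured genes. The lowest was Hnf4a, at 529 with DMSO and 457 with PCN, a log2 difference of -0.21. Fgb was higher, with a log2 difference of 0.06. Of 25 markers of other liver cells with a probe set, 7 were measured. Those of Kupffer cells and leukocytes were Cd14, at 1619 with DMSO and 1802 with PCN, and Cd68, at 1690 and 1626. The measured bile duct markers moved in opposite directions, Krt19 from 169 to 223 (a log2 difference of 0.40) and Sox9 from 127 to 95.2 (-0.42). The endothelial markers Stab2, at 42.1 and 37.0, and Lyve1, at 30.4 and 39.8, and the stellate cell marker Acta2, at 36.5 and 30.6, were near the floor. The other 18, among them Ptprc, Adgre1, Clec4f, Cdh5, Lrat, Col1a1 and Epcam, were under the floor in both arrays. The summed lists went from 3351 to 3470 for Kupffer cells and leukocytes, from 128 to 141 for endothelium, from 90.6 to 82.7 for stellate cells and from 310 to 333 for bile duct. Control probe sets for 18S ribosomal RNA differed by between -0.67 and -0.34 on the log2 scale at intensities of 69.6 or less. The 3' to 5' ratio of the beta-actin control was 1.51 in both arrays. The part of these controls in the carriers' differences was not tested.

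As a group the carriers differed little between the arrays, and Slc25a47 stood below all the others. The log2 difference, PCN minus DMSO, had a median of 0.04 over the 27 carriers, beside 0.03 over all measured genes. Its 25th and 75th percentiles were -0.10 and 0.11, beside -0.09 and 0.14 over all measured genes. With PCN, 17 carriers were higher and 10 lower, which is 63.0% higher beside 57.6% of all measured genes, and 37.0% lower beside 42.4%. With quantile normalization, median centring or a loess trend removed, the carriers divided into 14 higher and 13 lower, or 51.9% higher. Of all measured genes, 53.7%, 49.99% and 50.6% were higher under these scalings, in that order. A difference of 2-fold or more was seen in 1 carrier, Slc25a47, which was lower, beside 0.233% of all measured genes lower by that much and 0.0930% higher. A difference of 1.5-fold or more was seen in 2 carriers, Slc25a47 and Slc25a23, both lower, beside 1.30% of all genes lower and 0.636% higher. Slc25a23 passed the floor only in the DMSO array, and with a floor of 6 on the log2 scale it was not measured and the count was 1. Past 0.32 on the log2 scale, 2 carriers were lower and 2 higher, the latter being Slc25a15 and Slc25a37, beside 6.17% and 5.27% of all genes. In bulk RNA, fewer cells expressing a carrier and less RNA per cell cannot be told apart.

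As a yardstick of array-to-array spread, 40 bacterial and phage control probe sets differed by -0.03 ± 0.10 (SD) on the log2 scale, from -0.33 to 0.16. Of the 27 carriers, 21 lay within that range, 2 below it and 4 above it. Over all measured genes 72.7% lay within it. These controls are added from outside the cells, so their spread leaves out differences between cultures. They were not matched to the carriers by intensity, and differences of dim genes varied more than those of bright genes.

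**Figure D1:**
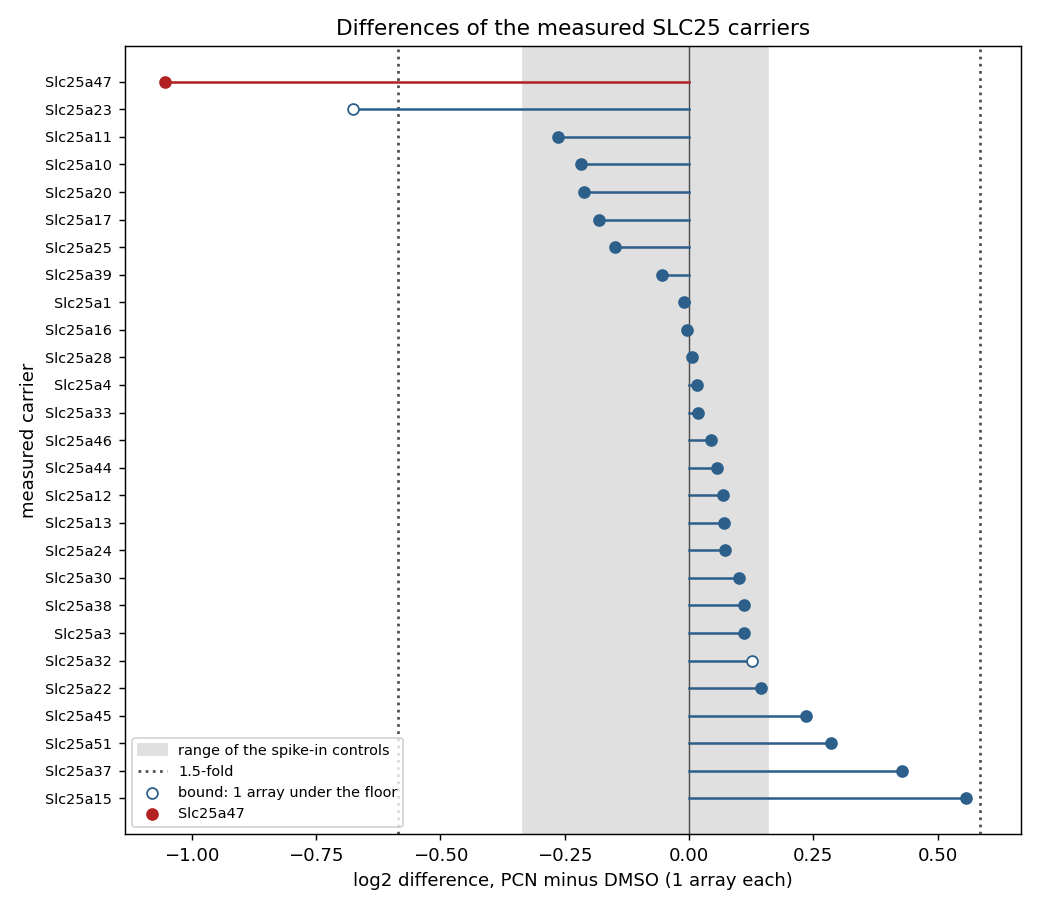
Log2 difference, PCN minus DMSO, of the 27 measured carriers (1 array per group), sorted. Grey marks the range of 40 spike-in controls, from -0.33 to 0.16, dotted lines mark 1.5-fold, and open circles are bounds because 1 array was under the floor. Slc25a47 lies lowest at -1.05, and 21 carriers fall inside the grey range.

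Slc25a47 had an intensity of 246 with DMSO and 119 with PCN, both well over the floor of 32. It was 2.07-fold lower with PCN, a log2 difference of -1.05. Of the 6449 measured genes, Slc25a47 ranked 12 from the lowest difference. The other 26 carriers had a median difference of 0.05 and ran from -0.68 to 0.56. Slc25a47 thus lay 1.10 log2 units below their median, a gap of 2.15-fold. The next lowest carrier was Slc25a23, and the difference of Slc25a47 minus that of Slc25a23 was -0.38 with the latter as a bound and -0.32 with values as deposited. The next lowest measured in both arrays, Slc25a11, stood 0.79 log2 units above Slc25a47. The SD of the differences over the carriers was 0.31 with Slc25a47 and 0.23 without it, and it was also 0.23 over all measured genes. Differences of dim genes varied more, with an SD of 0.26 in the dimmest tertile of measured genes by mean intensity, 0.23 in the middle one and 0.18 in the brightest. Slc25a47 belonged to the middle tertile, in which 3 of 2149 genes, or 0.140%, were lower by 2-fold or more. The difference of Slc25a47 was -1.08 with quantile normalization, -1.09 with median centring and -1.10 with a loess trend removed. The floors tried could not change it, since both intensities were over each of them.

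**Figure D2:**
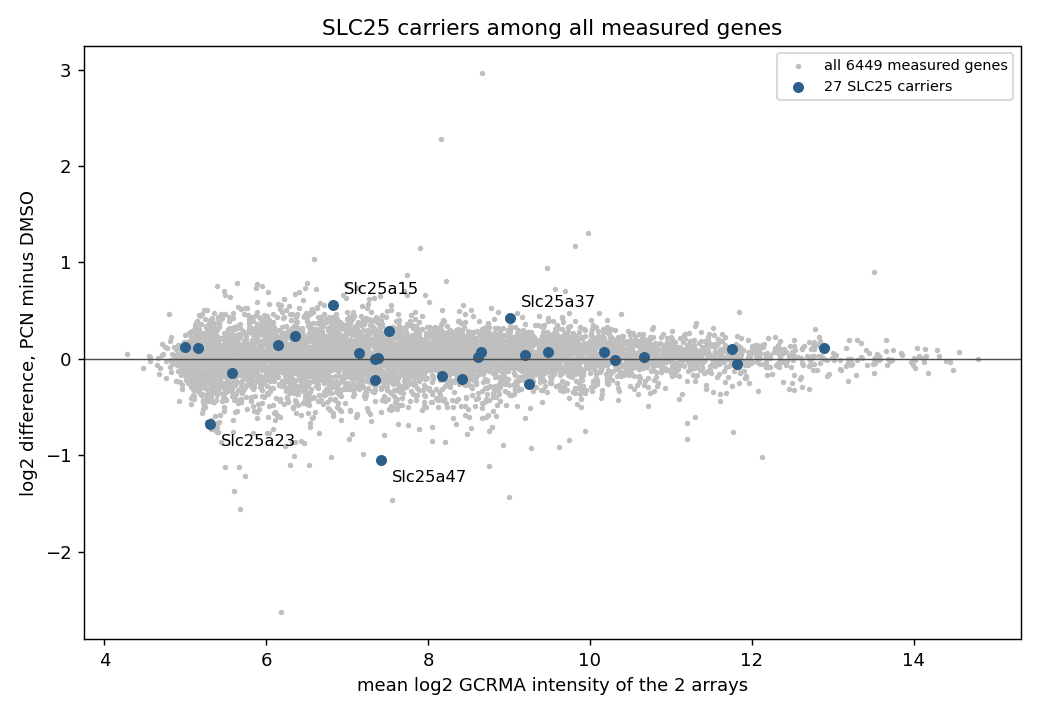
Log2 difference, PCN minus DMSO, against the mean log2 intensity of the 2 arrays, for all 6449 measured genes (grey) and the 27 measured carriers (blue). Slc25a47, at -1.05, is apart from the other carriers, which run from -0.68 to 0.56 within the grey cloud.

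To show the sequence in front of the carriers at both ends of the range, the 250 bases before a start site of Slc25a47 and Slc25a23, the lowest, and of Slc25a15, the highest, are given from RefSeq (GRCm38.p6). They are chr12:108850879-108851128 on the plus strand for Slc25a47, chr17:57059843-57060092 on the minus strand for Slc25a23, and chr8:22398622-22398871 on the minus strand for Slc25a15. RefSeq lists another start site for both Slc25a23 and Slc25a15. For Slc25a23 the windows largely overlap, and for Slc25a15 the one farther upstream is shown; the choice was arbitrary. Capitals mark, on either strand, TATAAA (the TATA box), CCAAT (the CCAAT box), GGGCGG (the GC box), CACGTG (an E-box) and the nuclear receptor half-sites AGGTCA and AGTTCA.
Slc25a47: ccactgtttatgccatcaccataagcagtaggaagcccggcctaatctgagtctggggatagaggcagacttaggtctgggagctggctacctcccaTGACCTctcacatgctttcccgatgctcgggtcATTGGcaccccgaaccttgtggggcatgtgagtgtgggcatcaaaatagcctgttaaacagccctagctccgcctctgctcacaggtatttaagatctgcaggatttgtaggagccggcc
Slc25a23: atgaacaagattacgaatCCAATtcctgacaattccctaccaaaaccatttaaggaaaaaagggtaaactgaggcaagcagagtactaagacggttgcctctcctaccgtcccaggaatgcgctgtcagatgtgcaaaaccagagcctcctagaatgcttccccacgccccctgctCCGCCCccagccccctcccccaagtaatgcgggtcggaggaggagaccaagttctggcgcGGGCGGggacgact
Slc25a15: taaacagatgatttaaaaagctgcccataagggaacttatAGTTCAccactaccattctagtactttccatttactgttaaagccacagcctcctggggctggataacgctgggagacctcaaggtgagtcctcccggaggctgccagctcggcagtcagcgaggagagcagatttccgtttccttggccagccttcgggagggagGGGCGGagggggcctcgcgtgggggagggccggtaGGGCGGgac
In these windows Slc25a47 had AGGTCA on the minus strand at -153 from the start site and CCAAT on the minus strand at -120. It had none of the other 4 motifs. Slc25a23 had CCAAT at -232 and GGGCGG at -74 and -14. Slc25a15 had AGTTCA at -210 and GGGCGG at -44 and -9. Overlaps between motifs were allowed in the search, and none occurred in these windows.

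Start sites were listed for 22 of the 27 measured carriers, 28 windows in all. GGGCGG was in 71.4% of these windows, beside 32.7% of all 32851 windows of this length in the table. The latter include genes that were not measured here, and a gene with several start sites counts once for each. A comparison with measured genes only was not made. CCAAT was in 53.6%, beside 33.8%. AGGTCA was in 10.7%, beside 14.0%, and the carriers that had it were Slc25a47, Slc25a39 and Slc25a45. AGTTCA was in 14.3%, beside 11.8%, and CACGTG in 14.3%, beside 6.02%. TATAAA was in none of the 28 windows, beside 12.4% of all. The ratio of observed to expected CpG had a median of 0.57 in the windows of the measured carriers, beside 0.37 over all windows. A ratio below 0.4 was found in 9 of the 28 windows, or 32.1%, beside 52.1% of all windows. Slc25a47 had 0.32, which was not the lowest. The windows of Slc25a22 had 0.22, 0.31 and 0.26, and those of Slc25a25 had 0.25, 0.25 and 0.87. The ratio was 0.64 and 0.53 for the start sites of Slc25a23. It was 0.54 for the window of Slc25a15 shown and 1.09 for its other one. That other window also held CACGTG once and GGGCGG 5 times. A match to these letters is a description of sequence, and no binding was measured.

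**Figure D3:**
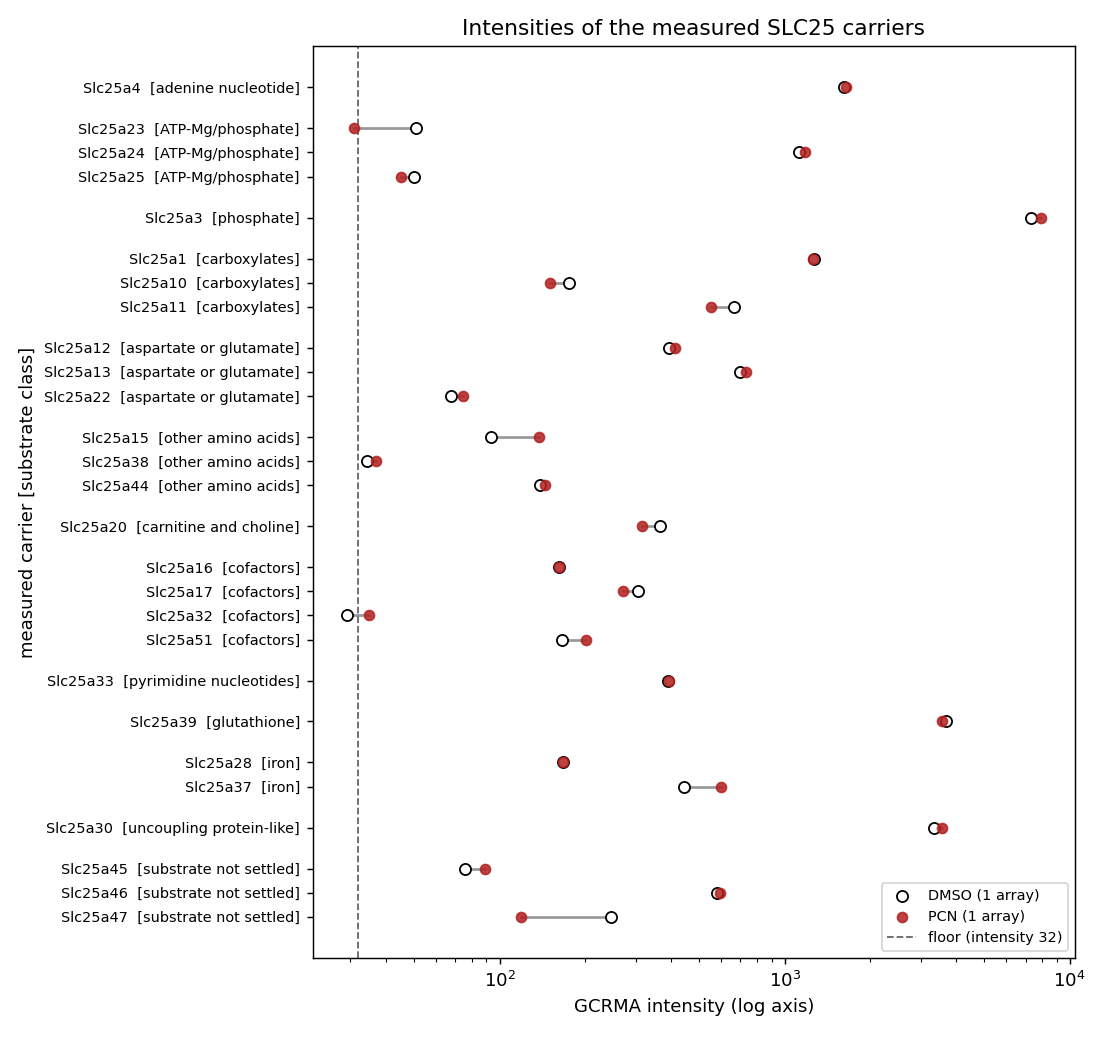
GCRMA intensity (log axis) of each measured carrier with DMSO (open circles) and PCN (red circles), 1 array each, grouped by substrate class; the dashed line is the floor of 32. The 2 circles overlap or nearly overlap for most carriers, and the widest gap is that of Slc25a47, from 246 to 119.

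Intensities of different probe sets depend on their probes, so they are given for each carrier and were not compared between genes as amounts. An intensity of 1000 or more in both arrays was reached by 6 carriers, namely Slc25a1, Slc25a3, Slc25a4, Slc25a24, Slc25a30 and Slc25a39. None of these 6 differed by more than 0.11 on the log2 scale. Slc25a3, which imports the phosphate used for ATP synthesis, had 7328 with DMSO and 7909 with PCN. Slc25a4, an ADP/ATP carrier that exports ATP from the matrix, had 1618 and 1636, a difference of 0.02 that turned to between -0.02 and -0.004 under the scaling alternatives. Slc25a31, the ADP/ATP carrier of the male germ line, was under the floor at 2.54 and 2.49. Slc25a30, a relative of the uncoupling proteins, had 3336 and 3576. Its relatives Slc25a14 and Slc25a27 were under the floor in both arrays.

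The ATP-Mg/phosphate carriers adjust the adenine nucleotide pool of the matrix and respond to calcium through EF-hand domains. Their 3 measured members had a median of -0.15, and 2 of them were lower, beside 42.4% of all measured genes. With a floor of 6 on the log2 scale only Slc25a24 was left, and the median turned to 0.073. Slc25a23 had 51.1 with DMSO and 30.8 with PCN, the latter just under the floor, so it was at least 1.60-fold lower. Slc25a25 had 50.2 and 45.3, a difference of -0.15, and Slc25a24 had 1124 and 1183, a difference of 0.07. Slc25a41, the short member without EF-hands, was under the floor at 3.08 and 3.72.

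All 3 measured carboxylate carriers were lower with PCN, beside 42.4% of all measured genes. None was past 0.32 on the log2 scale, and the class median was -0.22. Slc25a11, the oxoglutarate carrier of the malate-aspartate shuttle, had 663 with DMSO and 553 with PCN, a difference of -0.26. Slc25a10, the dicarboxylate carrier, which exchanges malate or succinate for phosphate, had 175 and 150, a difference of -0.22. Slc25a1, which exports citrate for fatty acid and sterol synthesis, had 1271 and 1263, a difference of -0.01. Slc25a20, which brings acylcarnitines into the matrix for fatty acid oxidation, had 367 and 317, a difference of -0.21. All of these lay within the range of the spike-in controls. Slc25a48, a carrier of choline, was under the floor at 3.78 and 4.01.

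The 3 measured aspartate or glutamate carriers were higher, beside 57.6% of all measured genes. Their class had a median of 0.07 and no member past 0.32. Slc25a13 (citrin), the aspartate-glutamate carrier of liver that supplies aspartate to the urea cycle, had 697 with DMSO and 732 with PCN. Its paralogue Slc25a12 (aralar), the main form of muscle and brain, had 392 and 411. The differences of this pair were both 0.07. Slc25a22, a glutamate carrier, had 67.4 and 74.6, a difference of 0.14, and its paralogue Slc25a18 was under the floor at 4.76 and 4.29. Slc25a11 and these aspartate-glutamate carriers serve the same shuttle, and their differences of -0.26 and 0.07 all lay inside the range of the spike-in controls.

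Of the carriers of other amino acids, all 3 measured members were higher, beside 57.6% of all measured genes. Their class median was 0.11. Slc25a15, the ornithine carrier that returns ornithine to the matrix in the urea cycle, had 93.3 with DMSO and 137 with PCN. It was 1.47-fold higher, a log2 difference of 0.56, and ranked 49 from the highest of all measured genes. Its paralogue Slc25a2 was under the floor at 3.34 and 3.05. Slc25a44, a carrier of branched-chain amino acids, had 138 and 144, a difference of 0.06. Slc25a38, the glycine importer needed for heme synthesis, was close to the floor at 34.2 and 36.9, a difference of 0.11. Slc25a29, a carrier of basic amino acids, was under the floor at 11.2 and 11.0.

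Both iron carriers were measured. Slc25a37 (mitoferrin-1), the iron importer best known from red cell precursors, had 444 with DMSO and 598 with PCN. It was 1.35-fold higher, a difference of 0.43, and ranked 141 from the highest. Its widely expressed paralogue Slc25a28 (mitoferrin-2) had 166 and 167, a difference of 0.01 that turned to between -0.04 and -0.03 under the scaling alternatives. The paralogues stood 0.42 log2 units apart in their differences.

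Cofactor carriers divided evenly, with 2 higher and 2 lower of 4 measured and a median of 0.06. That median turned to -0.004 with a floor of 4 or 6 and was 0.13 with low values as deposited. Slc25a51, which imports NAD+, had 165 with DMSO and 202 with PCN, a difference of 0.29 and 1.22-fold higher. Slc25a17, the peroxisomal member of the family, which carries CoA and other nucleotide cofactors, had 307 and 271, a difference of -0.18. Slc25a16, a candidate carrier of CoA, had 162 in both arrays. Slc25a32, a carrier of folate or FAD, had 29.2 and 35.0, over the floor only with PCN, and was at least 1.09-fold higher. Slc25a42, the CoA carrier of the inner membrane, was under the floor at 21.5 and 20.2, and Slc25a26, the carrier of S-adenosylmethionine, at 11.5 and 13.6. Slc25a39, which is needed for glutathione import, had 3690 and 3555, a difference of -0.05. Slc25a33, a pyrimidine nucleotide carrier, had 389 and 394, a difference of 0.02 that turned to between -0.02 and -0.004 under the scaling alternatives. Its paralogue Slc25a36 was under the floor at 3.04 and 3.25.

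Of the other carriers grouped with Slc25a47 because their substrate is not settled, 2 were measured. Both were higher, beside 57.6% of all measured genes. Slc25a45 had 75.4 with DMSO and 88.7 with PCN, a difference of 0.23. Slc25a46, an outer membrane member involved in mitochondrial shape, had 578 and 596, a difference of 0.04. Slc25a34, Slc25a35, Slc25a53 and Slc25a54 were under the floor in both arrays. In all, 15 carriers were under the floor, with intensities between 2.49 and 23.8, and no difference is given for them. The floor fell between Slc25a38 and Slc25a32 on its upper side and Slc25a14 (20.5 and 23.8) and Slc25a42 on its lower side. The carriers Slc25a5, Slc25a21, Slc25a40, Slc25a43 and Slc25a52 were not analysed here.

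Lists of other genes of mitochondrial transport, protein import and mitochondrial content gave a reference for the carriers. Over 25 measured genes of these lists, 8 of them of mitochondrial content, the median was 0.07, with a range from -0.18 to 0.39. Of the 25, 17 were higher, beside 57.6% of all measured genes. With quantile normalization or median centring 15 were higher, beside 53.7% and 49.99% of all measured genes in that order. With a loess trend removed, 16 of the 25 were higher, beside 50.6%. None reached 1.5-fold, a size reached by 1.30% of all genes in the lower direction and 0.636% in the higher. The largest group was that of the import machinery, which threads carrier proteins through the outer membrane and the intermembrane space to the inner membrane. It had 9 measured members with a median of 0.17, of which 8 were higher and Timm13 was lower at -0.02. Tomm22, a receptor subunit of the outer membrane, had 88.6 with DMSO and 116 with PCN, a difference of 0.39. Timm29, a subunit of the carrier translocase, had 54.9 and 71.7, a difference of 0.38, and the translocase channel Timm22 was under the floor. Tomm70a, the receptor for carrier precursors, had 767 and 937, a difference of 0.29.

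The 8 measured genes of mitochondrial content, such as Cs (citrate synthase), had a median of 0.04. Of these 8, 5 were higher, beside 57.6% of all measured genes. The summed intensity of this list went from 24025 to 24348. Of the carriers named otherwise, Mtch1 and Mtch2 of the outer membrane differed by -0.15 and 0.03, the latter not higher under the scaling alternatives, and the uncoupling proteins Ucp1 and Ucp3 were under the floor. The outer membrane channels Vdac1 and Vdac2 differed by 0.04 and 0.18, and the calcium uniporter subunits Micu2 and Smdt1 by -0.16 and -0.07. The sideroflexins Sfxn1, a serine carrier, and Sfxn3 differed by -0.18 and 0.32. The pyruvate carriers were not analysed here. The lowest of all these genes was Sfxn1, beside -1.05 for Slc25a47.

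**Figure D4:**
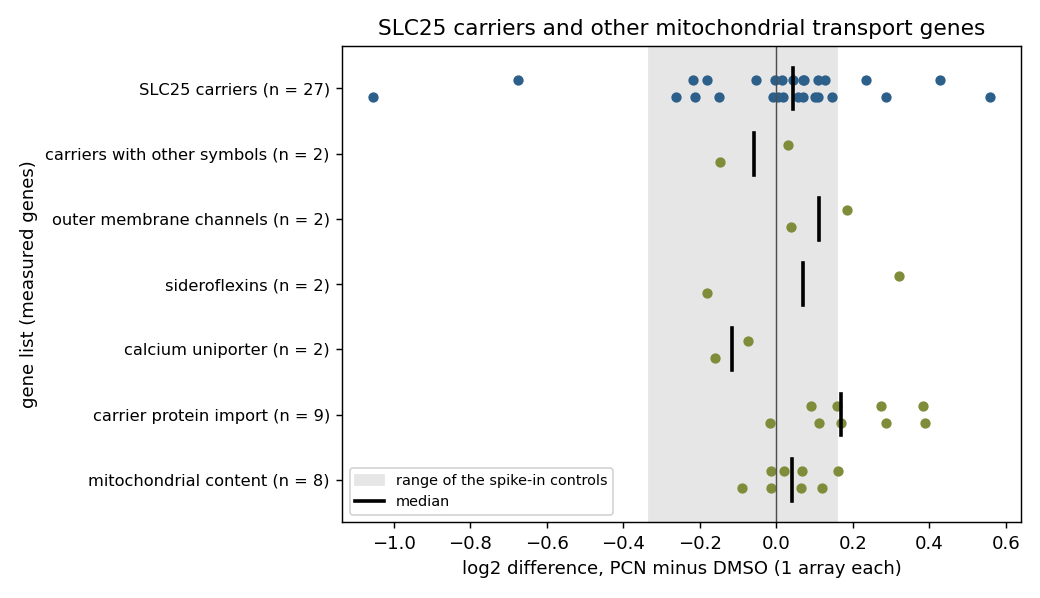
Log2 difference, PCN minus DMSO, of the measured genes of each list (points, 1 array per group) with the list's median (black bars) and the range of the spike-in controls (grey). The 25 genes of the other lists run from -0.18 to 0.39, while the 27 carriers run from -1.05 to 0.56.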

How the data were processed

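Gene expression was read on 1-colour Affymetrix arrays, 1 for DMSO and 1 for PCN, from biotin-labelled cRNA made from 5 µg of RNA pooled from 3 samples, per the labels' protocols. The deposited values are intensities on a linear scale, made with GCRMA 2.2.0 per the submitters' processing notes. GCRMA corrects background, normalizes arrays to each other and summarises each probe set, which hides any change in the total RNA of a cell. Arrays have no read depth, and having 2 of them limits the precision. The genome build is not given in the sources used here, nor is the probe set definition. Each carrier had 1 probe set, and all 42 matched the RefSeq table of GRCm38.p6 by gene number and symbol.

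Differences of log2 intensity were taken in pandas 2.3.3 and numpy 2.4.6 under Python 3.11.15. A value under a floor of 5 on the log2 scale (intensity 32) in 1 array was raised to it, which gives a bound, written "at least". With 1 array per group no test was run. The members, classes and lists were chosen with earlier results of these data known. Every measured carrier is named. Carrier proteins, planned for comparison, were not analysed here. Alternatives were floors of 4 and 6, low values as deposited, quantile normalization, median centring, subtraction of a loess fit (fraction 0.3, by statsmodels 0.14.6) and no filter. The calculation was tested on simulated arrays, with planted differences larger than any of the carriers and noise smaller than the spread of the spike-in controls. That checks the arithmetic and leaves the precision of small differences unknown.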

Additional observations from a re-analysis of the deposited data

How the results depend on the processing

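Under the 7 alternatives the difference of Slc25a47 lay between -1.10 and -1.05. Its distance to the median of the other carriers lay between -1.11 and -1.10. The floors, low values as deposited and no filter could not change its difference, since both its intensities were over each floor. Median centring shifts all carriers alike and could not change the distance. Only quantile normalization and the loess fit could move both. The alternatives were planned for the carriers and were extended to the other lists after seeing the data. With a floor of 6, Slc25a23 was not measured, so that 1 carrier was lower by 1.5-fold and 1 past 0.32 on the log2 scale, and the median was 0.073 for ATP-Mg/phosphate carriers and 0.31 for carriers of other amino acids, since fewer members were left. With no filter there were 42 carriers, 17 of them lower, and the median was -0.037 for ATP-Mg/phosphate carriers and -0.064 for carnitine and choline carriers. For the other lists, the sideroflexin median was 0.32 with a floor of 4 and -0.18 with a floor of 6, and that of the carriers with other symbols was 0.050 with no filter. Of 339 recomputed differences and medians, 21 changed sign, in 9 results: Slc25a4, Slc25a28 and Slc25a33, the adenine and pyrimidine nucleotide classes that rest on Slc25a4 and Slc25a33, and the medians of the cofactor and ATP-Mg/phosphate classes, the sideroflexins and the carriers with other symbols. Over all measured genes the median lay between 0.00 and 0.04 throughout. Signal near the floor limits Slc25a23, Slc25a32 and Slc25a38. No replicate could be left out. No paired analysis was possible because neither treatment was repeated.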

Other observations

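Some carrier genes lie next to each other in the genome. In the RefSeq table of GRCm38.p6, 4 pairs of carriers are neighbours among protein-coding genes, and 3 of these pairs had probe sets on the array. Slc25a47 on chromosome 12 neighbours Slc25a29, which was under the floor in both arrays, and Slc25a23 on chromosome 17 neighbours Slc25a41, also under the floor. Slc25a24 on chromosome 3 neighbours Slc25a54, likewise under the floor. In each pair 1 carrier was measured and the other was not, so the differences of neighbours could not be set side by side.

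By brightness, the 10 carriers in the brightest tertile of measured genes had a median absolute log2 difference of 0.07, beside 0.10 over all genes of that tertile. The 11 carriers of the middle tertile, Slc25a47 among them, had 0.18 beside 0.13, and the 6 of the dim tertile had 0.15 beside 0.14.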
